A study of Homo sapiens with 6 samples.

Results

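The MYC-MAX-MXD network is a set of transcription factors of the basic helix-loop-helix leucine zipper class that bind DNA in pairs at the hexamer CACGTG, the E-box. MYC, MYCN and MYCL pair with MAX and activate genes of growth, ribosome building and metabolism, while the MXD proteins, MXI1 and MNT pair with the same MAX and repress. MLX is a second shared partner, which joins MNT, some MXD proteins and the glucose-sensing factors MondoA (MLXIP) and ChREBP (MLXIPL). Neuroblastoma is known for amplification of MYCN, and SH-SY5Y is a line without it. The network was taken as the 10 genes MYC, MYCN, MYCL, MAX, MXD1, MXD3, MXD4, MXI1, MNT and MLX. They were listed by name, with earlier results of these data known. Of these, 9 were measured among 17687 genes in all, each by 1 probe set. No probe set is named MXD4 in the annotation used here, and this gene was not analysed.

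The cells were SH-SY5Y, an established human neuroblastoma line of sympathetic lineage, on Affymetrix whole-transcript arrays of 1 colour. One group of 3 arrays is labelled 15EN, with a bioactive compound at 15 µM, and the other group of 3 is VC, the vehicle control. The label 15EN is not spelled out, and the series title names the compound studied as eurycomanone, from Eurycoma longifolia root. Both groups share the retinoic acid (atRA) differentiation, given over 96 h, so the controls are retinoid-treated cells as well. Replicates 1, 2 and 3 carry passages 33, 34 and 35 in their titles in both groups, whereas all descriptions name passage 33. All samples are of 1 cell line, and beyond the passage the labels do not say whether replicates were grown separately. The p-values therefore describe the scatter of these arrays, part of which can be technical.

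Values are log2 signals as deposited, and differences are 15EN minus VC on that scale. Called higher or lower means a Benjamini-Hochberg adjusted p under 0.05 over all 17687 genes by limma. Median log2 signal over genes was 7.60 to 7.71 on the 6 arrays, and the median gene differed by 0.01 between groups. The 612 negative controls on each array had a 90th percentile of 7.41 to 7.99, and signals below it are called dim. Whether a dim gene is expressed cannot be told from its signal here, and 7779 of all genes were dim on all 6 arrays. The array of 15EN replicate 3 stood apart from its group. Its Pearson's r over all probe sets was 0.979 and 0.98 to replicates 1 and 2, which correlated at 0.992 with each other. To the 3 VC arrays its r was 0.971 to 0.973, against 0.966 to 0.968 for 15EN replicates 1 and 2. The hybridization controls, added in equal amount to each array, averaged 10.43 in 15EN and 11.30 in VC. Scaling to them adds 0.87 to every difference, and the median gene then lies at 0.88. Differences are given as deposited, where the median gene lies at 0.01, and can be read only relative to that gene. In bulk RNA, fewer cells with a transcript and less of it per cell cannot be told apart.

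Of the sympathetic neuroblast markers, 7 of 8 measured were above the negative controls on at least 1 array, among them the lineage factors HAND2 (12.44 ± 0.15 in VC, SD, n = 3), GATA3 (12.72 ± 0.27) and ISL1 (13.02 ± 0.23). TH was the marker that was dim on all 6 arrays. In 15EN 0 of these 8 were higher and 3 were lower, where 12.3% of all genes were higher and 9.09% lower. ISL1 fell by 1.19 ± 0.26 (SE, limma adjusted p = 0.00816), DBH by 1.59 ± 0.23 (0.00112) and PHOX2A by 0.88 ± 0.22 (0.0169). Of 13 markers of mesenchymal neuroblastoma cells, fibroblasts and glia, 0 were higher and 3 lower, namely VIM (-0.95 ± 0.21, adjusted p = 0.0106), COL1A1 (-0.88 ± 0.27, 0.0393) and SNAI2 (-0.73 ± 0.21, 0.033, and 0.14 after scaling to the hybridization controls). After that scaling, where the median gene lies at 0.88, 0 of the 13 were lower and 5 higher. Of the 8 neuroblast markers, 1 was lower and 4 were higher there. As deposited, each of the 2 lists had 5 genes at an unadjusted p under 0.05, and 32.2% of all genes had such a p. Of the 13 markers of other cells, 4 were dim on all 6 arrays. Some others were brighter than HAND2 in VC, such as VIM (15.68 ± 0.10), SNAI2 (14.25 ± 0.12) and FN1 (12.58 ± 0.79). On VC replicates 1, 2 and 3 the neuroblast list had median signals of 12.26, 12.01 and 11.90. The list of other cells had lower medians there, 9.97, 9.31 and 9.75, though single genes of the 2 lists overlapped in signal. Both lists had a negative median difference, -0.49 and -0.60. The part of these marker changes in the network values was not tested.

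Because these factors meet at the E-box, the stretches that carry one in the network's own promoters are printed first. The 250 bases before each annotated start (RefSeq, GRCh38.p14) were searched for CACGTG, which reads the same on both strands. Promoters were found for all network genes used here except MYC, which was not searched. Of these 9 genes, MXD4 included, 3 held the hexamer, beside 6.34% of the 35116 promoters in the table (a gene can have more than 1 promoter). It began at base -193 in MNT (window chr17:2401236-2401265, minus strand), at -50 in MLX (chr17:42567038-42567067, plus strand) and at -238 in MXD4 (chr4:2262330-2262359, minus strand). The capitals mark the hexamer.
MNT: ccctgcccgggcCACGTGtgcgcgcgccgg
MLX: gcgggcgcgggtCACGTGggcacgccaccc
MXD4: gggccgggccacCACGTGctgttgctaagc
The MXD1 promoter (chr2:69914859-69915108, plus strand) is shown because MXD1 was the member that changed. It holds no CACGTG in this window.
MXD1: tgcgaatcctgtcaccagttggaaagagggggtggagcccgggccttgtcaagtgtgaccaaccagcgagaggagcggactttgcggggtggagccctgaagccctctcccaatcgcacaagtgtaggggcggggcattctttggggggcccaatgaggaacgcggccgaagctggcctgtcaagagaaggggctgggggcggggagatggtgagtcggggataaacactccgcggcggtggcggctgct

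The comparison of 15EN with VC asks which network genes differ with the compound. MXD1, which encodes a MAX-binding repressor that rises as many cell types leave the cycle and differentiate, rose 3.35-fold. The 8 other members did not pass, including all 3 MYC paralogs and MAX. In counts, 1 of 9 members was higher, where 12.3% of all genes were, and 0 were lower, where 9.09% were. At an unadjusted p under 0.05 the count was again 1, MXD1, where 32.2% of all genes had such a p. The 9 differences ran from -0.23 to 1.75 with a median of 0.26, against a median of 0.01 over all genes. All 15EN arrays lay above all VC arrays for 2 members, MXD1 and MYC, and for 19.7% of all genes. For 0 members did all 15EN arrays lie below, as 16.6% of all genes did.

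The signals of MXD1 were 11.57, 11.96 and 9.85 in 15EN replicates 1, 2 and 3, against 9.19, 9.68 and 9.28 in VC. Replicates 1 and 2 of 15EN stood well above the controls, whereas replicate 3 was just above the highest of them, and the groups did not overlap. The difference was 1.75 ± 0.46 (SE, 95% confidence interval 0.73 to 2.76, limma adjusted p = 0.0213). Between arrays of the same replicate number it was 2.38, 2.28 and 0.57. With the replicate number as a block the adjusted p was 0.00508. The spread in 15EN (SD 1.12) was larger than in VC (SD 0.26), and 1 array moved the call. Without 15EN replicate 3 the difference was 2.38 ± 0.23 (adjusted p = 5.31e-05). Without any other single array it was 1.33 to 1.89, with adjusted p of 0.0541 to 0.0807, each above 0.05. MXD1 thus rose in the full set of 6 arrays, and the call was not kept in 5 of the 6 smaller sets.

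**Figure D1:**
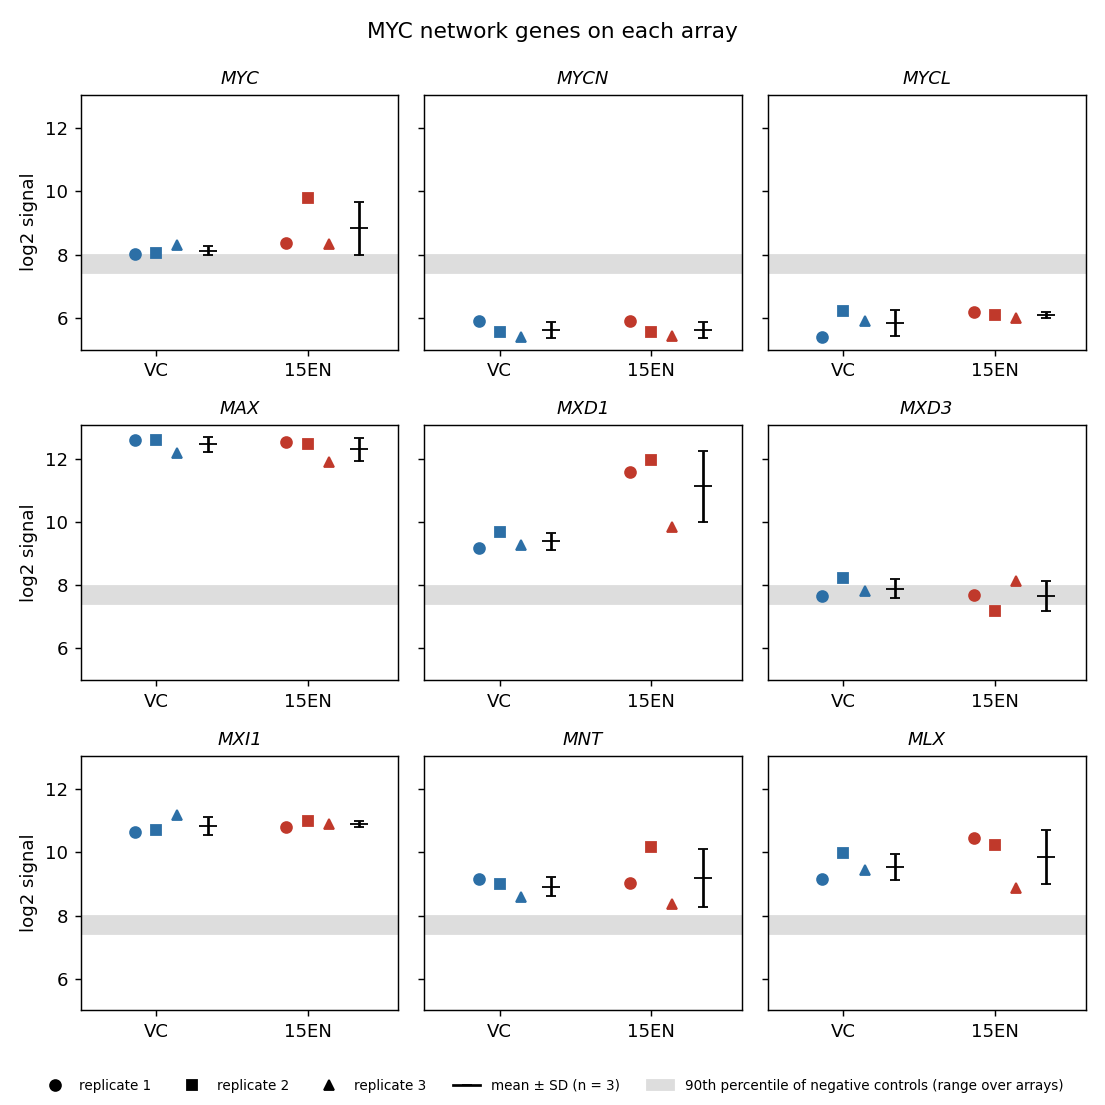
Log2 signal of the 9 measured network genes on each array (blue, VC; red, 15EN; symbols give the replicate number), with mean ± SD of 3 arrays in black and the range of the negative controls' 90th percentile in grey. MXD1 in 15EN lies at 11.57 and 11.96 in replicates 1 and 2 and at 9.85 in replicate 3, and MYC in 15EN replicate 2 lies at 9.80, above the 5 other arrays.

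MYC, the paralog most widely expressed in dividing cells, had signals of 8.39, 9.80 and 8.33 in 15EN and 8.03, 8.06 and 8.30 in VC. A single array, 15EN replicate 2, stood more than 1 unit above the rest, while the other 15EN arrays barely cleared the highest control. Group means were 8.84 ± 0.83 for 15EN and 8.13 ± 0.14 for VC (SD, n = 3). The difference of 0.70 ± 0.36 (95% confidence interval -0.10 to 1.5) did not pass (adjusted p = 0.213). Without 15EN replicate 2 it was 0.22 ± 0.23 (adjusted p = 0.601), and without 15EN replicate 3 it was 0.96 ± 0.35 (adjusted p = 0.0584). Differences between same-numbered arrays were 0.35, 1.73 and 0.03.

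MYCN, the paralog of the embryonic nervous system and of high-risk neuroblastoma, was dim on all 6 arrays. Its signals were 5.92, 5.57 and 5.42 in 15EN and 5.91, 5.56 and 5.41 in VC. Same-numbered arrays differed by 0.01, 0.01 and 0.02, less than the spread within a group. The difference was 0.01 ± 0.23, with a 95% confidence interval of -0.50 to 0.53 (adjusted p = 0.981). The interval covers the measured signal only, at a level within the range of the negative controls. MYCL, the third paralog, was dim on all 6 arrays as well. It had 6.20, 6.10 and 6.0 in 15EN and 5.40, 6.23 and 5.90 in VC. The groups overlapped, and the difference was 0.26 ± 0.25 (interval -0.29 to 0.80, adjusted p = 0.546).

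MAX, the partner that MYC proteins need to bind DNA and that the repressors share, was bright on every array. Its signals were 12.54, 12.47 and 11.88 in 15EN and 12.60, 12.58 and 12.17 in VC. Replicate 3 was the lowest array of both groups, and the groups overlapped. The difference was -0.15 ± 0.25 (interval -0.70 to 0.40, adjusted p = 0.746), and 0.72 after scaling to the hybridization controls, where the median gene lies at 0.88.

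Among the other MAX-binding repressors, MXI1 had the narrowest spread in 15EN. Its signals were 10.79, 10.97 and 10.89 there and 10.64, 10.70 and 11.16 in VC, with the 15EN values inside the range of the controls. It differed by 0.05 ± 0.22 (interval -0.44 to 0.54, adjusted p = 0.913). MXD3, a repressor found mainly in cycling cells, lay near the negative controls, at 7.68, 7.19 and 8.12 in 15EN and 7.65, 8.21 and 7.81 in VC. The order of 15EN and VC differed between replicate numbers, and the difference was -0.23 ± 0.28 (interval -0.84 to 0.39, adjusted p = 0.646). MNT, a broadly expressed repressor that pairs with MAX or MLX, had 9.03, 10.16 and 8.36 in 15EN and 9.14, 9.01 and 8.58 in VC. As for MYC, 15EN replicate 2 was the high array, and the difference was 0.27 ± 0.39 (interval -0.61 to 1.15, adjusted p = 0.713). Without 15EN replicate 2 it was -0.22.

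MLX had 10.45, 10.23 and 8.86 in 15EN and 9.17, 9.97 and 9.45 in VC. Replicates 1 and 2 of 15EN were above all controls and replicate 3 was below all of them. The difference was 0.32 ± 0.39 (interval -0.56 to 1.19, adjusted p = 0.655). Without 15EN replicate 3 it was 0.81 and passed (adjusted p = 0.0347), which made MLX the second member called in that smaller set. Across members, 15EN replicate 3 was the lowest array of its group for 7 of 9, against 36.6% of all genes. It was the highest for 1, MXD3, against 42.8% of all genes.

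**Figure D2:**
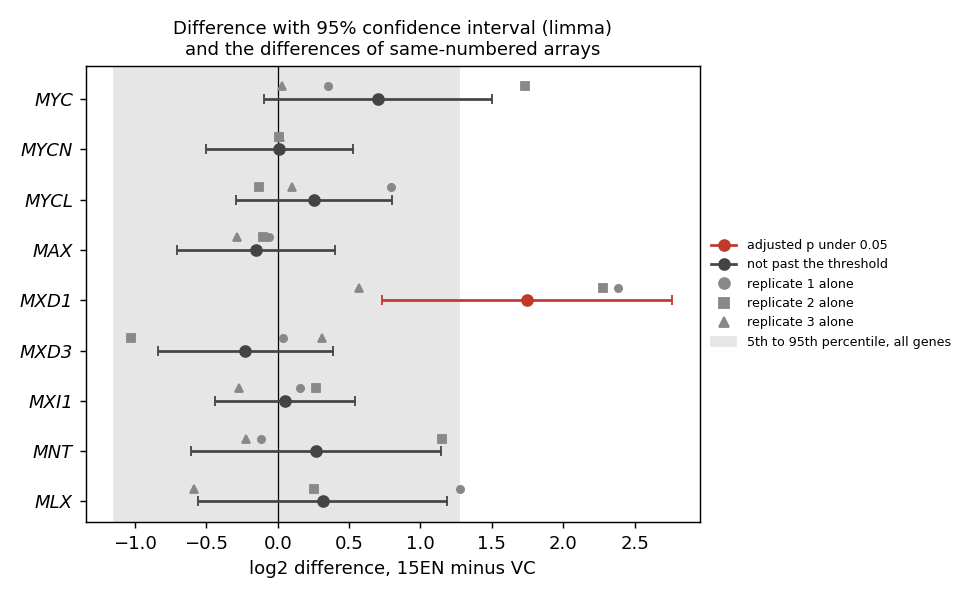
Log2 difference between 15EN and VC for each network gene, with its 95% confidence interval from limma (red, adjusted p under 0.05; dark grey, not past it) and the 3 same-numbered differences as small symbols; the band spans the 5th to 95th percentile of all genes, -1.15 to 1.27. MXD1 at 1.75 is the member whose difference lies outside that band, and the intervals of the 8 others include 0.

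**Figure D3:**
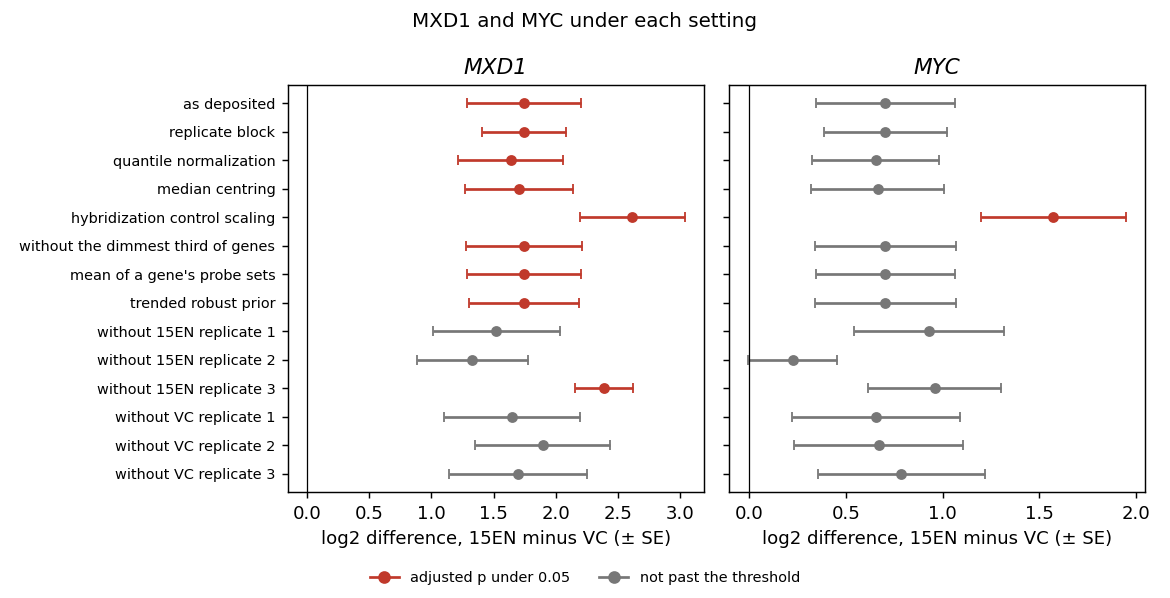
Difference of MXD1 and MYC (log2, ± SE) with the values as deposited and under each alternative (red, adjusted p under 0.05; grey, not past it). MXD1 stays positive, from 1.33 without 15EN replicate 2 to 2.61 after scaling to the hybridization controls, and loses its call without any single array other than 15EN replicate 3; MYC ranges from 0.22 to 1.57 and passes under that scaling.

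The genes whose pattern was most like that of MXD1 over the 6 arrays were GCC1 (Pearson's r = 0.997), AP1S3 (0.997) and CLIP4 (0.997), given as a description over arrays that share 2 groups. All 3 had replicate 3 as the lowest 15EN array, and none of their 15EN values overlapped the controls. Both traits follow from choosing these genes by likeness to MXD1. AP1S3, a subunit of a clathrin adaptor, rose by 0.84 ± 0.26 (adjusted p = 0.046), from a dim level in VC. GCC1, a golgin, differed by 0.70 ± 0.25 (adjusted p = 0.0713) and CLIP4 by 0.96 ± 0.32 (adjusted p = 0.0557). The difference of AP1S3 was no longer called without any single array other than 15EN replicate 3 (adjusted p = 0.111 to 0.158) or with a trended robust prior (0.058). With the replicate number as a block CLIP4 passed (adjusted p = 0.0265).

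Around MLX, the list of its partners, MGA and MondoA targets had 2 of 5 measured genes higher and 0 lower (all genes, 12.3% and 9.09%), with a median of 0.87. At an unadjusted p under 0.05 there were 3, the third being MGA. The 2 that rose are TXNIP, which encodes a thioredoxin-binding arrestin that limits glucose uptake, and its relative ARRDC4. Both are textbook targets of MondoA-MLX pairs, and TXNIP is also held to be repressed by MYC. TXNIP had 11.97, 12.43 and 10.88 in 15EN and 8.97, 8.86 and 8.69 in VC. ARRDC4 had 8.79, 9.35 and 7.81 in 15EN and 5.79, 5.81 and 5.54 in VC, dim on all 3 control arrays. For each gene every 15EN array stood above every control, with replicate 3 the lowest of the group. TXNIP rose by 2.92 ± 0.35 (adjusted p = 0.000464) and ARRDC4 by 2.94 ± 0.34 (adjusted p = 0.000434). Both stayed called without any single array, at 2.58 to 3.35 and 2.59 to 3.36.

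The factor genes on this side did not pass in the unblocked fit of all 6 arrays. MLXIP, which encodes MondoA, had 8.04, 9.14 and 7.75 in 15EN and 8.76, 8.88 and 9.0 in VC, a difference of -0.57 ± 0.33 (adjusted p = 0.276). Without 15EN replicate 2 it was the list's 1 lower gene. MLXIPL, which encodes ChREBP, was dim on all 6 arrays and differed by -0.27 ± 0.31 (adjusted p = 0.617). MGA, a MAX partner of a repressive Polycomb complex, had 13.89, 13.79 and 12.49 in 15EN and 12.53, 12.73 and 12.31 in VC. Its replicate 3 in 15EN lay among the controls, and the difference was 0.87 ± 0.35 (adjusted p = 0.112). With the passage number as a block MGA passed (adjusted p = 0.0395), and without 15EN replicate 3 its difference was 1.32 and passed as well (0.00098).

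The promoters of both target genes are shown because the 2 genes rose together. MondoA-MLX pairs bind a carbohydrate response element, made of E-box-like hexamers set 5 bases apart, and the search was for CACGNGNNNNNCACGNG on both strands. This pattern has both hexamers in the same direction, and other forms of the element were not searched. A match may contain CACGTG. It was found in 16 of the 35116 promoters (0.0456%). One of these was TXNIP (first of its 2 annotated promoters, chr1:145996580-145996829, minus strand), where the match spans bases -88 to -72 and is in capitals. The ARRDC4 promoter (chr15:97960453-97960702, plus strand) held no such match and 1 CACGTG, at base -210, in capitals. These are matches of letters to the searched patterns, so lack of a match is not lack of the element. Binding was not measured.
TXNIP: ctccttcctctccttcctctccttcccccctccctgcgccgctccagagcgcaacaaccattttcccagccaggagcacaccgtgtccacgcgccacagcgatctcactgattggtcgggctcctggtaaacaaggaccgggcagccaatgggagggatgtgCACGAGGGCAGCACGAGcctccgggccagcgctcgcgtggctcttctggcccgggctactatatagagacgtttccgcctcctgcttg
ARRDC4: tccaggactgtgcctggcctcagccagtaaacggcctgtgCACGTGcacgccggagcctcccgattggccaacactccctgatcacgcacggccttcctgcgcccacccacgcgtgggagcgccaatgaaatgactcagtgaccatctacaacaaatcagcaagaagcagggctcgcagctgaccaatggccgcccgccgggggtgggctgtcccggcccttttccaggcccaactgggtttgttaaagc

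**Figure D4:**
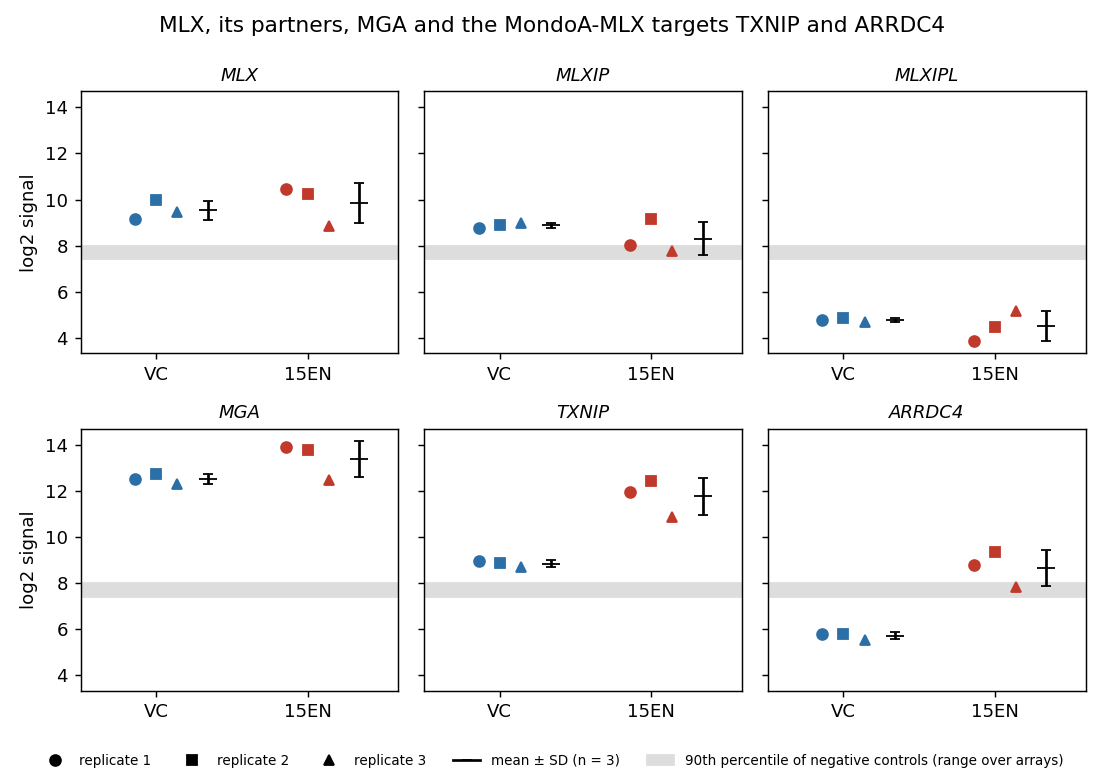
Log2 signal of MLX, its partners MLXIP and MLXIPL, the MAX partner MGA, and the targets TXNIP and ARRDC4 on each array, with symbols and grey band as for the network genes and mean ± SD of 3 arrays in black. TXNIP and ARRDC4 lie higher on all 3 15EN arrays (10.88 to 12.43 and 7.81 to 9.35) than on any control (8.69 to 8.97 and 5.54 to 5.81), while the 4 factor genes overlap between groups.

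Cofactors that MYC or MXD proteins recruit were 5 higher and 1 lower of 18 measured, with a median of 0.23 (all genes, 12.3% higher and 9.09% lower). RUVBL1 and RUVBL2, paired ATPases of the chromatin complexes MYC recruits, rose by 1.63 ± 0.24 (adjusted p = 0.00132) and 1.28 ± 0.20 (0.00183). RUVBL2 was at 13.30, 13.16 and 13.06 in 15EN against 11.84, 12.04 and 11.79 in VC, without overlap. CCNT1 (1.36 ± 0.20, 0.00141), the cyclin of the elongation kinase P-TEFb, and SUPT5H (0.93 ± 0.19, 0.00709), an elongation factor, rose too. CDK9, the kinase partner of cyclin T1, was the fifth higher gene, at 1.00 ± 0.28 (0.0277), and lost its call without any single array but 15EN replicate 3 (0.0606 to 0.122). The lower one was HDAC1, a deacetylase of the SIN3 complex that MXD proteins use, at -0.79 ± 0.21 (adjusted p = 0.0207). Scaling to the hybridization controls turned it to 0.08, and its adjusted p was 0.0809 and 0.0832 with VC replicate 1 or 3 left out. CDK9 and HDAC1 fall outside the naming rule and were named after their values were seen. SIN3A, the scaffold that MXD1 binds directly, differed by -0.04 ± 0.23 (adjusted p = 0.936) and was likewise named after its value was seen.

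Of 16 measured genes that act on MYC protein stability, 1 was higher and 1 lower, with a median of 0.01, against 12.3% and 9.09% over all genes. FBXW7, which encodes the ubiquitin ligase subunit that recognises phosphorylated MYC, rose by 1.43 ± 0.26 (adjusted p = 0.00347), from 9.35, 8.91 and 8.99 in VC to 10.77, 10.73 and 10.04 in 15EN. SKP2, another ligase subunit for MYC and for the cell-cycle inhibitor p27, fell by 2.28 ± 0.34 (adjusted p = 0.00141). Its signals were 13.48, 12.78 and 12.60 in VC and 10.96, 9.95 and 11.12 in 15EN. Neither gene's groups overlapped, and both stayed called without any single array (adjusted p up to 0.0243 and 0.00919). Without 15EN replicate 3 the list had 2 higher and 2 lower genes.

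The targets that MYC is known to activate were taken as 2 lists. In the list of ribosome biogenesis, 14 of 21 measured genes were higher and 0 lower, with a median of 0.95, against 12.3% higher and 9.09% lower over all genes. At an unadjusted p under 0.05 there were 16. WDR74, a pre-ribosome factor, rose by 2.27 ± 0.21 (adjusted p = 0.000202), NIP7 by 1.81 ± 0.21 (0.000447), RRS1 by 1.62 ± 0.20 (0.000498) and MRTO4 by 1.36 ± 0.20 (0.00132). RRS1 lay at 10.42, 10.48 and 10.52 in 15EN against 8.80, 8.97 and 8.80 in VC. For RRS1 and MRTO4, 15EN replicate 3 was the highest of its group. For WDR74 (11.51, 11.35 and 11.14 in 15EN) and NIP7 (14.42, 14.39 and 14.04) it was the lowest, as for MXD1. The count was 9 without VC replicate 2 or VC replicate 3. In these lists the direction shared by most called genes was known from earlier results of these data and is no independent evidence.

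In the list of growth and metabolism, 2 of 25 measured genes were higher and 6 lower, with a median of 0.13, where 12.3% of all genes were higher and 9.09% lower. PTMA, a chromatin-associated acidic protein and classical MYC target, fell by 1.59 ± 0.22 (adjusted p = 0.000991), from 16.73, 16.70 and 16.38 in VC to 15.17, 14.74 and 15.12 in 15EN. LDHA, the lactate dehydrogenase subunit, fell by 0.95 ± 0.23 (0.0149), and PRPS2, which makes the sugar phosphate for nucleotides, by 1.00 ± 0.25 (0.0159). IMPDH2, the rate-limiting enzyme of guanine nucleotide synthesis, rose by 1.47 ± 0.21 (0.0011). LDHA and PRPS2 each lost the call without any of 4 single arrays (adjusted p = 0.0525 to 0.0639). Scaling to the hybridization controls, where the median gene lies at 0.88, left LDHA at -0.08 and PRPS2 at -0.13. Neither was called there (limma adjusted p = 0.794 and 0.668). The list's lower count was 1 without VC replicate 1 or VC replicate 2, 3 when 15EN replicate 1, 15EN replicate 2 or VC replicate 3 was left out, and 7 without 15EN replicate 3. Its higher count was 1 without 15EN replicate 1 or any single VC array, and 1 with the replicate number as a block.

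Of 12 measured genes that MYC or MYCN is known to repress, 2 were higher and 2 lower, with a median of 0.08, beside 12.3% higher and 9.09% lower among all genes. GADD45A, a stress sensor, rose by 3.43 ± 0.34 (adjusted p = 0.000234), and CDKN1A, the cell-cycle inhibitor p21, by 2.85 ± 0.53 (0.00419). Both are p53 targets as well. CDKN1A was at 14.42, 15.51 and 14.98 in 15EN and 10.67, 12.83 and 12.87 in VC, with VC replicate 1 the low control. CDKN1B, which encodes p27, fell by 0.95 ± 0.22 (0.0115). TGM2, a transglutaminase known to be repressed by MYCN and raised by retinoic acid, fell by 1.99 ± 0.50 (0.0172). The signals of TGM2 in 15EN, 11.94, 13.75 and 14.29, were widely spread, with replicate 1 the lowest. Without that array the difference was -1.30 ± 0.29 (adjusted p = 0.0169). The lower count was 0 without VC replicate 2 and 1 without VC replicate 1.

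**Figure D5:**
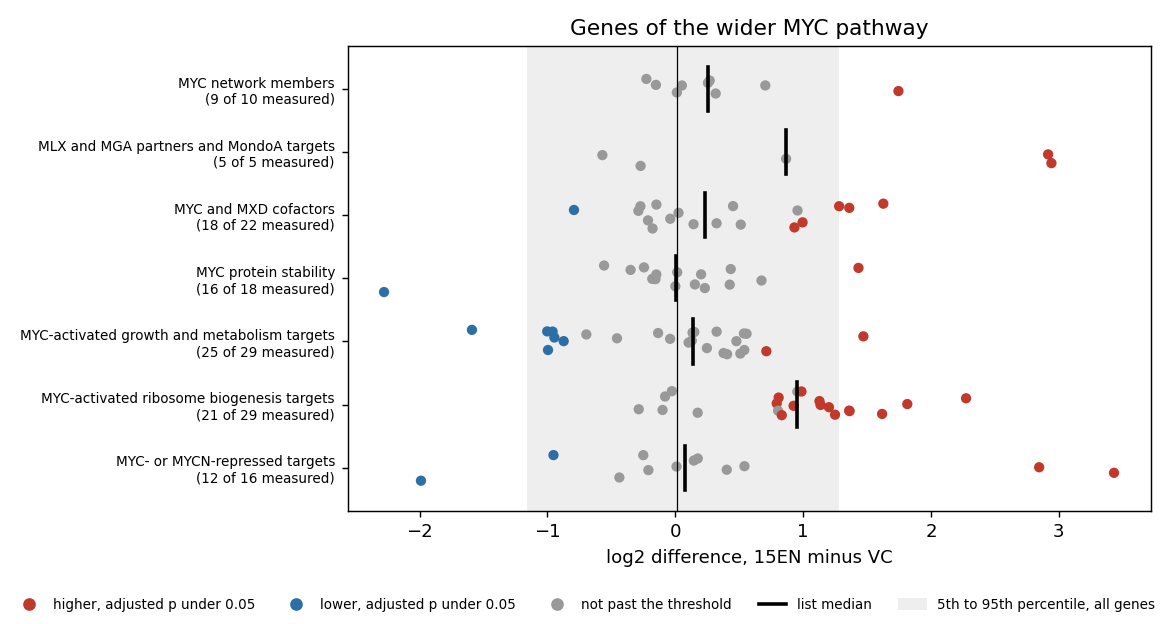
Log2 difference between 15EN and VC for each measured gene of the network and of the wider pathway lists (red, higher; blue, lower; both at adjusted p under 0.05; grey, not past it), with list medians as black bars and the 5th to 95th percentile of all genes, -1.15 to 1.27, as a band. The ribosome biogenesis targets have a median of 0.95 with 14 genes higher and 0 lower, while the growth and metabolism targets have 2 higher and 6 lower and the network itself 1 higher.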

How the data were processed

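The values are log2 signals, 1 per probe set and array, deposited by the authors. The Transcriptome Analysis Console was the authors' software, per the submitters' processing notes. For its version, summarization, normalization and build, the sources used here give nothing, and the scale was judged from the range, 2.20 to 18.8. Of 21448 gene probe sets, 17709 have 1 gene symbol in the platform's annotation, 0 have several, and 3739 have none here. The brightest probe set of each gene was kept (17687 genes), with no filter. The fit was made by limma 3.58.1 (R 4.3.3) over all genes with group as its single term, two-sided, and the procedure was tested on simulated data. The number of arrays limits the precision. Same-numbered arrays share a passage in the titles and deviated together from their group means (r over genes 0.229, 0.162 and 0.133, against -0.138 to -0.0165 for other pairs), so the block fit is a paired one. Named genes are the network, up to 4 called genes of smallest p per list, and the 3 genes most like the called member. The members and lists were chosen with earlier results of these data known. Alternatives were a replicate block, quantile normalization, median centring, scaling to 4 hybridization controls, removal of the dimmest tercile of genes, mean probe sets, a trended robust prior and leaving out each array. Promoter sequences are from RefSeq tables of GRCh38.p14, with 250 bases before the start searched.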

Additional observations from a re-analysis of the deposited data

How the results depend on the processing

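MXD1 kept its direction under all 13 alternatives and its call under 8 of them. The network's higher count of 1 ran from 0 to 2 when single arrays were left out, and its lower count of 0 did not change. Smaller sets of arrays have fewer degrees of freedom. The median gene moved by over 0.1 only under scaling to the hybridization controls, which adds a constant to every gene while the test stays against 0. There 8 network members were higher (MXD3 was not), MAX turned to 0.72 and SNAI2 to 0.14, and over all genes 12150 were higher and 437 lower (96.5% of calls higher, against 57.5% as deposited). On the same scaling the cofactors had 14 higher and 0 lower, the stability genes 12 higher, the growth and metabolism targets 17 higher and 1 lower, the repressed targets 8 higher and 0 lower, the neuroblast markers 4 higher and 1 lower, and the markers of other cells 5 higher and 0 lower. With the replicate block, the paired fit, the stability genes had 2 higher, the growth and metabolism targets 1 higher and the markers of other cells 5 lower, and no other count moved by over 1.5 times. The growth and metabolism targets also had 1 higher after quantile normalization or median centring. Stability genes had 2 higher without the dimmest tercile of genes, and 2 lower after quantile normalization or with a trended robust prior. The cause of these shifts was not tested.

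Leaving out single arrays gave 1301 to 3227 higher and 970 to 2240 lower genes over all genes. By list, the lower count was 0 to 1 for the MLX list and the cofactors, 1 to 2 for the stability genes, 1 to 7 for the growth and metabolism targets, 0 to 2 for the repressed targets and 1 to 5 for the markers of other cells. The higher count was 1 to 2 for the stability genes and for the growth and metabolism targets and 9 to 16 for the ribosome biogenesis targets. Of the named falls, LDHA, PRPS2, CDKN1B, TGM2, SNAI2, PHOX2A, COL1A1 and HDAC1 each lost the call without at least 1 array. Low signal limits MYCN, MYCL and MLXIPL, which were dim on all 6 arrays.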
